A study of Mus musculus with 6 samples.

Results

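The AP-1 and EGR immediate early factors are transcription factor genes that were measured here by RNA-seq in cultured mouse macrophages. The macrophages were grown out of bone marrow in M-CSF, the growth factor of the lineage. The 10 members, Fos, Fosl2, Jun, Junb, Jund, Atf3, Batf, Maff, Egr1 and Egr2, were taken by gene symbol from the 55335 genes of the count table. Each symbol had 1 row, and all 10 genes passed the filter on low counts, as did 13901 genes in all. There were 3 libraries of macrophages given 400 µM kinsenoside, a plant glycoside, together with PAC-CM, which is medium conditioned by pancreatic acinar cells after injury, and 3 libraries of macrophages given PAC-CM alone. All 6 samples thus carry the conditioned medium, which was added on day 5. Macrophages that never saw it were not analysed here, so induction of these genes by the medium itself cannot be read from the values. The time between adding the medium and taking the RNA, the strain and age of the mice and the way the acinar cells were injured are not given in the sources used here.

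AP-1 is a family of dimers of leucine zipper proteins. Fos proteins dimerize with Jun proteins, Jun proteins also dimerize among themselves, and ATF, BATF and small Maf proteins join or oppose them. EGR proteins bind GC-rich sites through zinc fingers. Many of these genes are immediate early genes, which are transcribed without new protein synthesis when MAP kinases reach the cell's standing transcription factors, and whose transcripts are short-lived. In macrophages AP-1 acts beside NF-kB on cytokine and protease genes, and Egr2 is also known from alternatively activated macrophages.

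Promoter sequence was examined for 9 of the 10 members, all except Egr1, in 15 windows, since some genes have several transcription starts. It is shown because several of these genes are controlled by their own family: the CRE, a site of ATF and CREB proteins, and its variant in the Jun promoter, bound by Jun and ATF dimers. The sequences are RefSeq's for build GRCm38.p6, on the strand of the gene, and hold the 250 bases before the start. Capitals mark the CRE core TGACGT or its reverse ACGTCA, the full CRE TGACGTCA, or the variant TGACATCA. The window of Fos is chr12:85473640-85473889 on the plus strand and overlaps no GENCODE gene model. The window of Jun is chr4:95052223-95052472 on the minus strand, outside Jun itself and inside the antisense gene Junos.
Fos: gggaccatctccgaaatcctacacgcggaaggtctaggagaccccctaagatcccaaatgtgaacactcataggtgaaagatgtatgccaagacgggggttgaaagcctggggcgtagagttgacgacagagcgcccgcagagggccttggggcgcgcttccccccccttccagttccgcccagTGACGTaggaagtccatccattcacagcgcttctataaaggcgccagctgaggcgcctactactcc
Jun: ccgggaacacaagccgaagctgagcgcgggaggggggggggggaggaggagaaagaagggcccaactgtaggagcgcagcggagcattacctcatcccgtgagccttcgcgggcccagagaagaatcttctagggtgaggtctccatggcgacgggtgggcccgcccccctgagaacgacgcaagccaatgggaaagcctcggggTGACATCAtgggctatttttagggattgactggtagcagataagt

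CRE matches of 4 other members are shown as stretches of 30 bases on the strand of the gene, with the same capitals. They lie at chr1:191183334-191183363 (minus strand) for Atf3, at chr12:85686610-85686639 for Batf, at chr10:67537801-67537830 for Egr2 and at chr15:79347480-79347509 for Maff, the last 3 on the plus strand.
Atf3: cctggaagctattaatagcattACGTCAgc
Batf: tttctaacttgtTGACGTttccgcccatgt
Egr2: atatgggcagcgACGTCAcgggtattgaag
Maff: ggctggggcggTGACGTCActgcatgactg
The stretch of Atf3 overlaps an exon of a longer Atf3 transcript, while those of Batf, Egr2 and Maff overlap no exon. On either strand, the CRE core was found in 7 of the 15 member windows and in 6.47% of 32851 windows of all genes. These 7 windows belong to 5 of the 9 members (Atf3, Batf, Egr2, Fos and Maff), and those of Egr2 overlap and share the site. The full CRE, which contains the core, was found in 1 member window, of Maff, and in 1.55% of all windows. The Jun variant was found for Jun and in another window of Maff, which is not shown, and in 2.93% of all windows. The TRE, the classical AP-1 site (TGACTCA or TGAGTCA), was in none of the 15 member windows and in 4.46% of all windows. The window of Jund, at chr8:70697489-70697738, overlaps no GENCODE gene model, and the Jund gene that was counted starts further downstream, at 70698949. The CArG box, the binding site of serum response factor, was found in 4 member windows, all of Egr2, and in 1.47% of all windows. Some of these 4 windows overlap, and Egr1, which was not searched, cannot be compared with Egr2 here. The EGR site GCGNGGGCG was found in 2 member windows, of Fosl2 and Maff, and in 4.7% of all windows. The motifs were chosen with the sequences in view, and a match is a description of the letters. No match says only that these letters are not in the window.

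The libraries held between 41125059 and 47461702 counts. Of the markers of other cell types, the 15 pancreatic acinar genes summed to between 6.94 and 9.49 CPM (each count scaled by the library total) with kinsenoside and between 8.30 and 9.14 CPM in PAC-CM. The 8 T and NK cell genes summed to at most 16.8 CPM in any library, with Cd3d and Ncr1 at 0 in all 6, and the 6 B cell genes to at most 3.67 CPM. The 13 identifiers of macrophage genes summed to between 23200 and 26000 CPM with kinsenoside and between 21200 and 23300 CPM in PAC-CM. Of them 1 rose, Mrc1, the mannose receptor gene used as a marker of alternative activation, at 153, 126 and 150 CPM with kinsenoside and 87.4, 99 and 94.5 CPM in PAC-CM (log2 fold change 0.66, adjusted p = 0.0316 by edgeR). The groups did not overlap for Mrc1, but it missed the threshold with limma-voom (adjusted p = 0.0535) and with non-robust edgeR estimates (adjusted p = 0.0533). It also missed it by edgeR without kinsenoside replicate 3 (adjusted p = 0.0742) or PAC-CM replicate 1, 2 or 3 (adjusted p = 0.127, 0.0923 and 0.105). In any library the neutrophil genes summed to at most 43 CPM, the dendritic cell genes to 9.48 CPM, the fibroblast genes to 1.71 CPM and the erythroid genes to 0.898 CPM. The 5 endothelium genes summed to between 99.8 and 168 CPM with kinsenoside and between 103 and 132 CPM in PAC-CM. Of these, Kdr and Vwf were at 67.4 and 49.2 CPM with kinsenoside and at 58.1 and 46.3 CPM in PAC-CM. The rest of that list was lower. Cdh5 and Pecam1 were at 9.67 and 9.1 CPM with kinsenoside and at 9.16 and 6.2 CPM in PAC-CM. Tek had 5 counts in kinsenoside replicate 2 and 0 elsewhere. The first principal component of log2 CPM held 28.8% of the variance, and the groups did not overlap on it. Kinsenoside replicates 1 to 3 lay at 4.29, 24.1 and 30.7, and PAC-CM replicates 1 to 3 at -25.7, -21.5 and -11.9. Kinsenoside replicate 1 stood apart on the second component, at 39.3, where the other libraries lay between -19.7 and 6.13. On the third component kinsenoside replicates 2 and 3 lay at -31.9 and 23.7, and the other libraries between -9.71 and 9.58. The labels do not say whether replicates were separate cultures or animals, so the p-values cover this spread alone, which may be technical.

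The order of the 10 genes by level was identical in all 6 libraries. Levels between genes are given as CPM per kilobase of exon. Atf3, a repressor and stress-response member of the ATF family, was the highest, at 238 ± 6.63 with kinsenoside and 260 ± 13.3 in PAC-CM (SD, n = 3 per group, as in all values that follow). It stood above between 98.5% and 98.7% of 13891 tested genes of known length. The Jun genes followed. Junb, a Jun protein that restrains c-Jun in some settings, was at 81.4 ± 11.5 with kinsenoside and 97.6 ± 7.85 in PAC-CM. Jun itself was at 58.0 ± 10.6 with kinsenoside and 60.1 ± 5.71 in PAC-CM, and Jund at 45.1 ± 4.57 with kinsenoside and 49.4 ± 5.19 in PAC-CM.

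Fos, the namesake partner of Jun, was lower than all 3 Jun genes, at 21.5 ± 1.88 CPM per kilobase with kinsenoside and 23.4 ± 2.36 in PAC-CM. Batf, an AP-1 member without an activation domain, was at 14.4 ± 0.655 with kinsenoside and 16.9 ± 1.5 in PAC-CM. Fosl2 (Fra-2) was at 8.11 ± 0.802 with kinsenoside and 8 ± 0.820 in PAC-CM, and the small Maf gene Maff at 6.05 ± 1.09 with kinsenoside and 6.50 ± 0.131 in PAC-CM. The EGR genes were the lowest. Egr2 was at 2.55 ± 0.915 with kinsenoside and 2.68 ± 0.492 in PAC-CM. Egr1, among the most used immediate early markers, was at 0.257 ± 0.0418 with kinsenoside and 0.124 ± 0.0508 in PAC-CM, above only 2.7% to 14% of tested genes. Neighbours in this order did not overlap within either group, though some steps were narrow beside the range of the replicates. With kinsenoside, Jun spanned 50.9 to 70.1 and Jund 40.9 to 50, and Fosl2 spanned 7.2 to 8.7 and Maff 4.92 to 7.09.

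**Figure D1:**
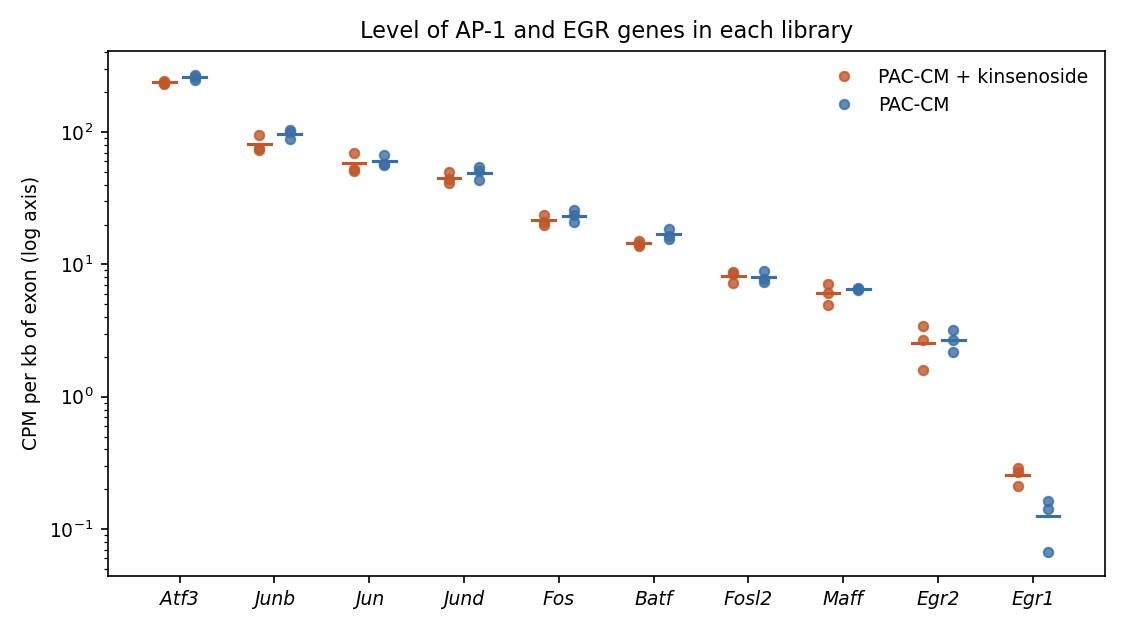
Level of each member as CPM per kilobase of exon (log axis), genes ordered by level; points are the 3 libraries of a group and horizontal bars their mean, kinsenoside in orange and PAC-CM in blue. Atf3 lies at 238 with kinsenoside and 260 in PAC-CM, Egr1 at 0.257 with kinsenoside and 0.124 in PAC-CM, and neighbouring genes do not overlap within a group.

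Of the summed level of the 10 genes per kilobase, Atf3 made up 46.2%, 51.5% and 52.8% in kinsenoside replicates 1 to 3 and 50.2%, 46.9% and 51.7% in PAC-CM replicates 1 to 3. The share of Junb was 17.1% ± 1.56 with kinsenoside and 18.6% ± 1.01 in PAC-CM, and that of Jun 12.1% ± 1.6 with kinsenoside and 11.4% ± 1.17 in PAC-CM. The Atf3 shares of the groups overlapped. Among 10 ratios of members computed, the ratio of Jun to Fos per kilobase was 3.36, 2.64 and 2.15 with kinsenoside and 2.70, 2.60 and 2.42 in PAC-CM. The ratio of Junb to Jun was 1.35, 1.44 and 1.45 with kinsenoside and 1.83, 1.52 and 1.55 in PAC-CM, so the kinsenoside libraries all lay below the PAC-CM libraries. This ratio was picked after its values were seen and was not tested.

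The question put to each gene was whether kinsenoside changed its transcript level under the conditioned medium. None of the 10 members passed edgeR's quasi-likelihood test at an adjusted p under 0.05, where 0.511% of all tested genes did (71 of 13901). DESeq2 and limma-voom called none of them either, where they called 3.55% and 0.281% of genes. At an unadjusted p under 0.05 there was 1 member, Egr1, by each of the 3 tools, beside 14.9% of tested genes by edgeR, 13.7% by DESeq2 and 15.1% by limma-voom. Estimates lay below 0 for 8 members and 51.1% of tested genes. The median log2 fold change of the members was -0.07, and that of all tested genes -0.01. In bulk RNA, a change in the share of cells with a transcript and a change in the amount per cell cannot be told apart.

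**Figure D2:**
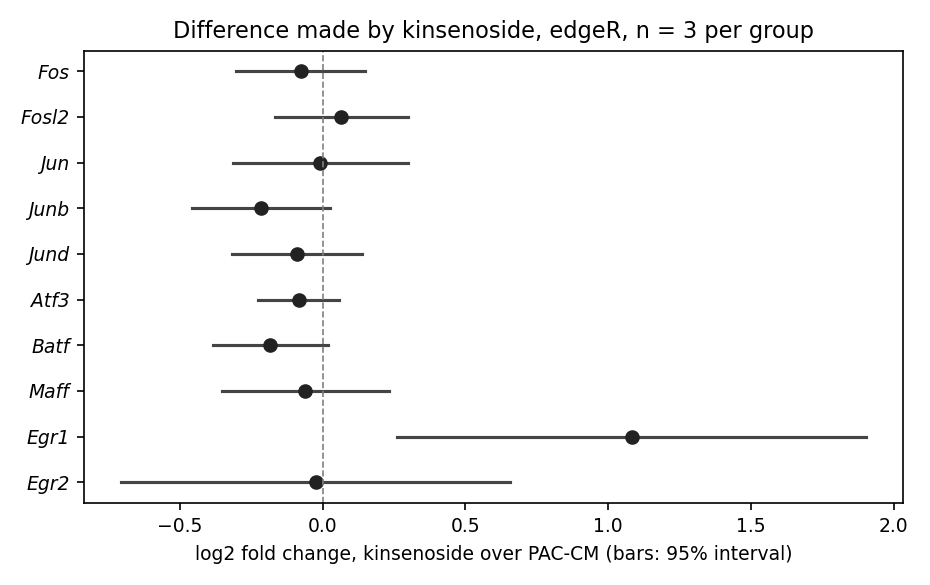
Log2 fold change of each member, kinsenoside over PAC-CM, from edgeR with 3 libraries per group; points are estimates and bars 95% intervals. The interval of every member except Egr1 includes 0, and Egr1 has an adjusted p of 0.221.

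Fos (ENSMUSG00000021250, chromosome 12, 85473890 to 85477273, GRCm38) had 49.1, 47.1 and 55.5 CPM with kinsenoside and 49.2, 60.3 and 55.6 CPM in PAC-CM. The groups overlapped, with the lowest value in kinsenoside replicate 2 and the highest in PAC-CM replicate 2. Its log2 fold change was -0.08 (SE 0.0988, 95% interval -0.30 to 0.15, adjusted p = 0.770 by edgeR), which corresponds to a level of 0.810 to 1.11 times that in PAC-CM. Fosl2 (ENSMUSG00000029135, chromosome 5, 32135801 to 32157842) had 84.2, 69.7 and 81.6 CPM with kinsenoside and 74.5, 86.4 and 71.3 CPM in PAC-CM. Here too the groups overlapped, and the interval of its log2 fold change was -0.17 to 0.30. The interval of Fosl2 corresponds to a level of 0.890 to 1.23 times that in PAC-CM.

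Jun (ENSMUSG00000052684, chromosome 4, 95049034 to 95052222) had 224, 169 and 162 CPM with kinsenoside and 180, 213 and 182 CPM in PAC-CM. Its highest and its lowest value were both in kinsenoside libraries, replicates 1 and 3. The estimate was -0.01 (SE 0.132, interval -0.31 to 0.30, adjusted p = 0.989 by edgeR). Junb (ENSMUSG00000052837, chromosome 8, 84974484 to 84978718) had 218, 175 and 169 CPM with kinsenoside and 237, 233 and 204 CPM in PAC-CM. Kinsenoside replicate 1 lay within the PAC-CM range and the other kinsenoside libraries below it. The log2 fold change of Junb was -0.22 (SE 0.106, interval -0.46 to 0.02, adjusted p = 0.381 by edgeR), and without kinsenoside replicate 1 it was -0.34 (adjusted p = 0.114 by edgeR).

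Jund (ENSMUSG00000071076, chromosome 8, 70698949 to 70700616), the Jun gene usually described as constitutive, had 83.3, 73.9 and 68.3 CPM with kinsenoside and 90.2, 84.1 and 73.1 CPM in PAC-CM. The groups overlapped, and the estimate was -0.09 (interval -0.32 to 0.14, adjusted p = 0.730 by edgeR). The Jun genes overlap other gene models, and no source says whether counting used strand. Junb shares 351 bases with Prdx2, an abundant peroxiredoxin gene on the opposite strand with 8826, 8410 and 8337 counts with kinsenoside and 9056, 10050 and 9057 in PAC-CM. If counting did not use strand, reads of the shared bases cannot be told apart. Jun shares 689 bases with the antisense gene Junos, which had 87, 52 and 49 counts with kinsenoside and 98, 113 and 82 in PAC-CM, beside 6671 to 10089 counts of Jun in the 6 libraries.

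Atf3 (ENSMUSG00000026628, chromosome 1, 191170296 to 191218039) had 500, 510 and 528 CPM with kinsenoside and 587, 530 and 566 CPM in PAC-CM. All kinsenoside libraries lay below all PAC-CM libraries on this scale, by a narrow margin. With TMM scaling, which the test uses, the values were 508, 515 and 540 CPM with kinsenoside and 576, 523 and 558 CPM in PAC-CM, and the groups overlapped. The log2 fold change was -0.08 (SE 0.0627, interval -0.23 to 0.06, adjusted p = 0.582 by edgeR). Atf3 had the smallest standard error of the 10 genes, and its interval spans 0.854 to 1.04 times the level in PAC-CM.

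Batf (ENSMUSG00000034266, chromosome 12, 85686669 to 85709087), which pairs with Jun proteins and works with interferon regulatory factors in lymphocytes and dendritic cells, had 21.3, 20.1 and 19.5 CPM with kinsenoside and 26.2, 22.1 and 23.0 CPM in PAC-CM. The groups did not overlap under either scaling. The log2 fold change was -0.18 (SE 0.0883, interval -0.39 to 0.02, adjusted p = 0.375 by edgeR). Maff (ENSMUSG00000042622, chromosome 15, 79346621 to 79359076), a small Maf protein without an activation domain, had 18.4, 15.9 and 12.8 CPM with kinsenoside and 16.9, 17.2 and 16.5 CPM in PAC-CM. The kinsenoside libraries lay on both sides of the PAC-CM libraries, and the coefficient of variation was 18% with kinsenoside and 2.01% in PAC-CM. The estimate was -0.06 (interval -0.35 to 0.23, adjusted p = 0.878 by edgeR), and without kinsenoside replicate 1 it was -0.19 (adjusted p = 0.449 by edgeR).

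Egr1 (ENSMUSG00000038418, chromosome 18, 34859823 to 34864984) had the largest estimate of the 10 members, 2.12 times the level in PAC-CM. It had 41, 55 and 50 counts with kinsenoside and 13, 35 and 28 counts in PAC-CM, or 0.944, 1.3 and 1.22 CPM with kinsenoside and 0.302, 0.737 and 0.635 CPM in PAC-CM. All kinsenoside libraries lay above all PAC-CM libraries. The log2 fold change was 1.08 (SE 0.359, interval 0.26 to 1.90, adjusted p = 0.221 by edgeR), so the difference did not pass the threshold. With so few counts, the exact Poisson 95% intervals were 29.4 to 55.6 for the lowest kinsenoside library and 24.4 to 48.7 for the highest PAC-CM library, which overlap. These intervals cover counting error only. Without PAC-CM replicate 1, the library of 13 counts, the log2 fold change was 0.79 (adjusted p = 0.427 by edgeR).

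Egr2 (ENSMUSG00000037868, chromosome 10, 67535475 to 67542188) had 11.6, 5.38 and 9.09 CPM with kinsenoside and 10.8, 9.08 and 7.46 CPM in PAC-CM. It had the widest spread with kinsenoside, a coefficient of variation of 35.8%, and the highest and the lowest of the 6 values were both in kinsenoside libraries. The estimate was -0.02 (SE 0.285, interval -0.71 to 0.66, adjusted p = 0.984 by edgeR), so changes of up to 1.58-fold upward or to 0.613 of the PAC-CM level lie within the interval. Without kinsenoside replicate 1 the estimate was -0.29 (adjusted p = 0.639 by edgeR).

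**Figure D3:**
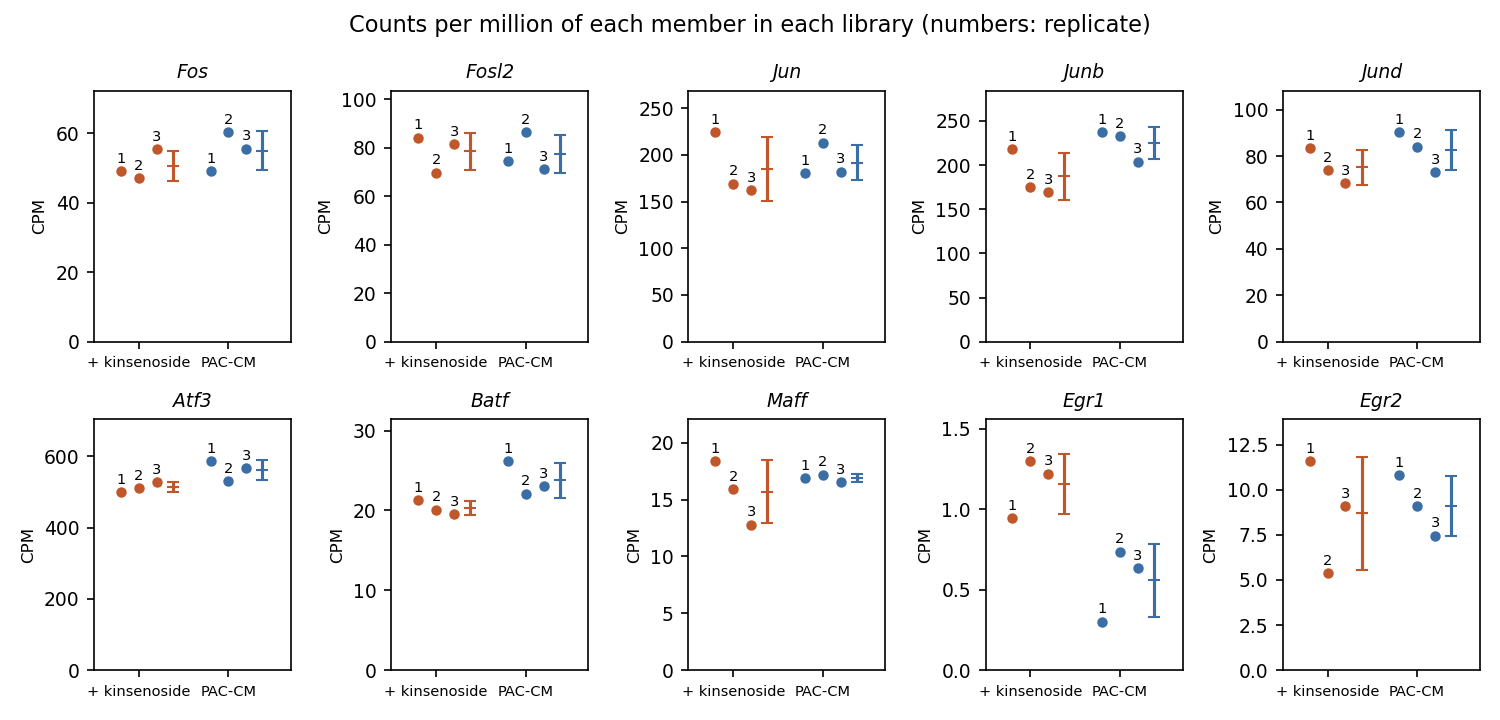
CPM of each member in each library, with kinsenoside (orange, left) and in PAC-CM alone (blue, right); the number on each point is the replicate and the bars give mean ± SD. The groups do not overlap for Atf3, Batf and Egr1.

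The groups did not overlap in CPM for 3 of the 10 members, Atf3 and Batf lower and Egr1 higher with kinsenoside, where this held for 22.5% of tested genes (15.7% lower, 6.86% higher). With TMM scaling it was 2 members, Batf lower and Egr1 higher, and 21.8% of tested genes (11.4% lower, 10.4% higher). The members' count is thus close to the background. The median coefficient of variation of the members was 12.1% with kinsenoside and 9.80% in PAC-CM, beside 10.7% and 9.04% over all tested genes. The 10 genes summed to 1210, 1090 and 1110 CPM with kinsenoside and 1270, 1260 and 1200 CPM in PAC-CM.

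Kinsenoside replicate 1 held the highest value of its group for 7 of the 10 members (Fosl2, Jun, Junb, Jund, Batf, Maff and Egr2), where it did so for 36.1% of tested genes. The 3 Jun genes together had 525, 418 and 400 CPM with kinsenoside and 507, 530 and 459 CPM in PAC-CM, so replicate 1 lay within the PAC-CM range and replicates 2 and 3 below it. Kinsenoside replicate 1 was also the highest of its group for 12 of 13 tested MAP kinase phosphatases and feedback genes and for 17 of 25 other immediate early genes. The counts were 14 of 24 AP-1 targets, 10 of 16 EGR targets, 6 of 13 other Fos, Jun, ATF and BATF genes, 3 of 6 SRF and ternary complex factor genes and both NAB genes. For the MAP kinase cascade it was 11 of 31, with replicate 3 the highest for 15, and for the Maf, BACH and CNC partners 3 of 9, shares close to that of all tested genes. The median log2 CPM of the feedback list, relative to each gene's mean, was 0.18, -0.17 and -0.15 with kinsenoside and 0.01, 0.12 and 0.03 in PAC-CM. For all tested genes these medians lay between -0.001 and 0.011. Without kinsenoside replicate 1 none of the members passed, where 0.69% of tested genes did, with adjusted p between 0.114 for Junb and 0.972 for Fosl2 by edgeR, and the log2 fold changes of Jun and Jund were -0.17 for both. 

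**Figure D4:**
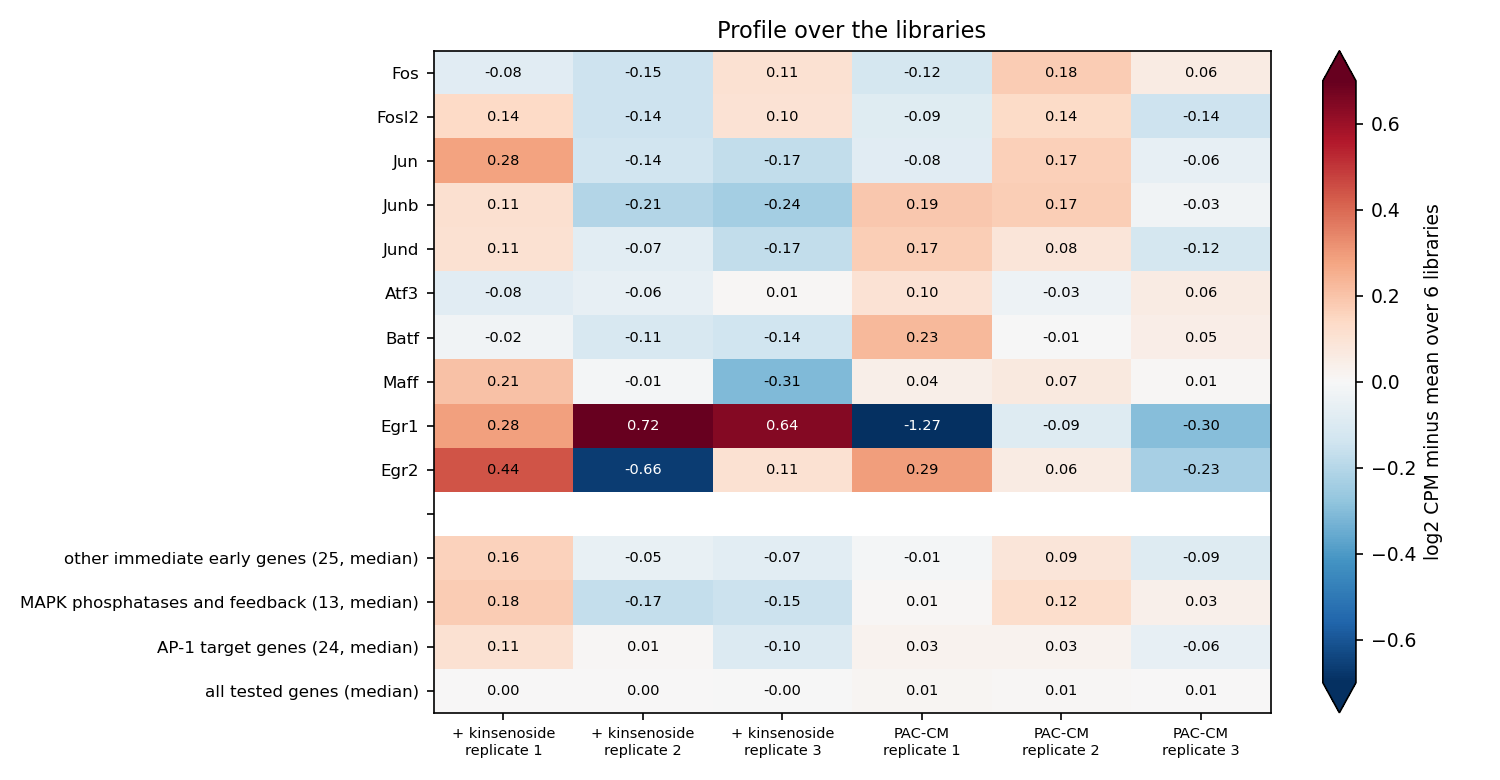
Log2 CPM (TMM-scaled) of each member minus its mean over the 6 libraries, kinsenoside libraries left and PAC-CM libraries right, with medians of 3 gene lists and of all tested genes below. Jun lies at 0.28 in kinsenoside replicate 1 and at -0.14 and -0.17 in replicates 2 and 3, while Egr1 is above its mean in all 3 kinsenoside libraries.

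By profile over the 6 libraries, measured as the mean absolute difference of centred log2 CPM, the most alike members were Junb and Jund (0.0684), followed by Atf3 and Batf (0.0704). Among 9115 other genes of at least 5 CPM, those most like Jun were Wiz (0.0266), Sf3a2 (0.0305) and Irf2 (0.0318). For Fos they were Susd1 (0.0234), BC024978 (0.0291) and Clec4a1 (0.0341). For Egr1 the nearest, Ube2l3, Zfp467 and Slc40a1, differed by 0.193, 0.217 and 0.242.

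The genes around the members were described from lists of related factors, regulators and targets. Of 13 tested other Fos, Jun, ATF and BATF genes none passed (median log2 fold change -0.09). Atf6, a sensor of unfolded protein in the endoplasmic reticulum, averaged 66.7 ± 5.35 CPM with kinsenoside and 77.3 ± 3.35 CPM in PAC-CM (-0.17, adjusted p = 0.353 by edgeR). Atf4, the effector of the integrated stress response, averaged 121 ± 32.4 CPM with kinsenoside and 112 ± 36.7 CPM in PAC-CM. Fosb, an immediate early Fos gene, had at most 9 counts in any library and was not tested. Fosl1 (Fra-1) had 287, 230 and 150 counts with kinsenoside and 193, 193 and 177 in PAC-CM. Of 9 Maf, BACH and CNC partners none passed (median 0.04). Maf averaged 213 ± 39.8 CPM with kinsenoside and 212 ± 24.2 CPM in PAC-CM. The EGR paralog Egr4 was at 0 in all libraries, which at 3 counts allows up to 0.0729 CPM, and Egr3 had 3 counts in a single kinsenoside library and 0 elsewhere. The corepressor genes Nab1 and Nab2, whose proteins bind EGR factors, did not pass. Nab1 averaged 112 ± 3.25 CPM with kinsenoside and 115 ± 4.34 CPM in PAC-CM, and Nab2 averaged 37.5 ± 1.92 CPM with kinsenoside and 37.5 ± 4.15 CPM in PAC-CM.

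Upstream, none of 6 SRF and ternary complex factor genes passed (median -0.14), and Srf itself averaged 26.3 ± 4.11 CPM with kinsenoside and 30.6 ± 2.48 CPM in PAC-CM. Its partner Elk3 averaged 141 ± 10.5 CPM with kinsenoside and 156 ± 10.3 CPM in PAC-CM. Mkl2, an actin-regulated coactivator of SRF, averaged 53.7 ± 1.14 CPM with kinsenoside and 41.8 ± 9.59 CPM in PAC-CM (0.41, adjusted p = 0.314 by edgeR). Of 31 genes of the MAP kinase cascade 1 fell and none rose. It was Map3k5, the stress kinase ASK1 upstream of JNK and p38, at 10.1, 9.03 and 7.47 CPM with kinsenoside and 17.2, 15.8 and 15 CPM in PAC-CM (log2 fold change -0.81, SE 0.125, adjusted p = 0.0412 by edgeR). The groups did not overlap. The call was lost by edgeR without kinsenoside replicate 2 or 3 (adjusted p = 0.144 and 0.0735) or any 1 of PAC-CM replicates 1 to 3 (adjusted p = 0.161, 0.154 and 0.105), with log2 fold changes of -0.70 to -0.85. On all 6 libraries it was also lost with limma-voom (adjusted p = 0.0555) and with non-robust edgeR estimates (adjusted p = 0.0587). Mapkapk2, the p38 target kinase MK2, had 137 ± 13.8 CPM with kinsenoside and 204 ± 17.8 CPM in PAC-CM and missed the threshold (-0.53, adjusted p = 0.0601 by edgeR). It was named after its values were seen, since it passed under 5 of the alternatives. Of the 13 feedback genes none passed (median -0.16), and Dusp1, a phosphatase of p38 and JNK, averaged 196 ± 16.7 CPM with kinsenoside and 193 ± 14.0 CPM in PAC-CM. Spred1, an inhibitor of the Ras to Raf step, averaged 170 ± 16.4 CPM with kinsenoside and 200 ± 5.44 CPM in PAC-CM (-0.18, adjusted p = 0.323 by edgeR).

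Of 25 other immediate early genes none passed (median -0.05). The survival gene Mcl1 averaged 1320 ± 102 CPM with kinsenoside and 1320 ± 73.4 CPM in PAC-CM, and the kinase gene Sgk1 averaged 409 ± 60.0 CPM with kinsenoside and 538 ± 42.7 CPM in PAC-CM (-0.35, adjusted p = 0.184 by edgeR). Of 24 AP-1 target genes 1 fell, the cytokine gene Il1b, at 1060, 1060 and 935 CPM with kinsenoside and 1550, 1550 and 1650 CPM in PAC-CM (-0.60, SE 0.0683, adjusted p = 0.0152 by edgeR). The groups did not overlap for Il1b, which is as well known as a target of NF-kB. By edgeR its adjusted p was 0.0681 without kinsenoside replicate 2 and 0.0824, 0.0627 and 0.0701 without PAC-CM replicates 1, 2 and 3, with log2 fold changes of -0.56 to -0.62. The other 23 did not pass (median of the list -0.05). Of 16 EGR target genes none passed (median -0.05). Csf1r, the M-CSF receptor gene, averaged 1230 ± 75.9 CPM with kinsenoside and 1300 ± 41.1 CPM in PAC-CM, and the endotoxin co-receptor gene Cd14 averaged 2530 ± 242 CPM with kinsenoside and 2260 ± 158 CPM in PAC-CM (0.21, adjusted p = 0.322 by edgeR). The list counts are 0 or 1 of their tested genes, beside 0.302% of all tested genes that fell.

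**Figure D5:**
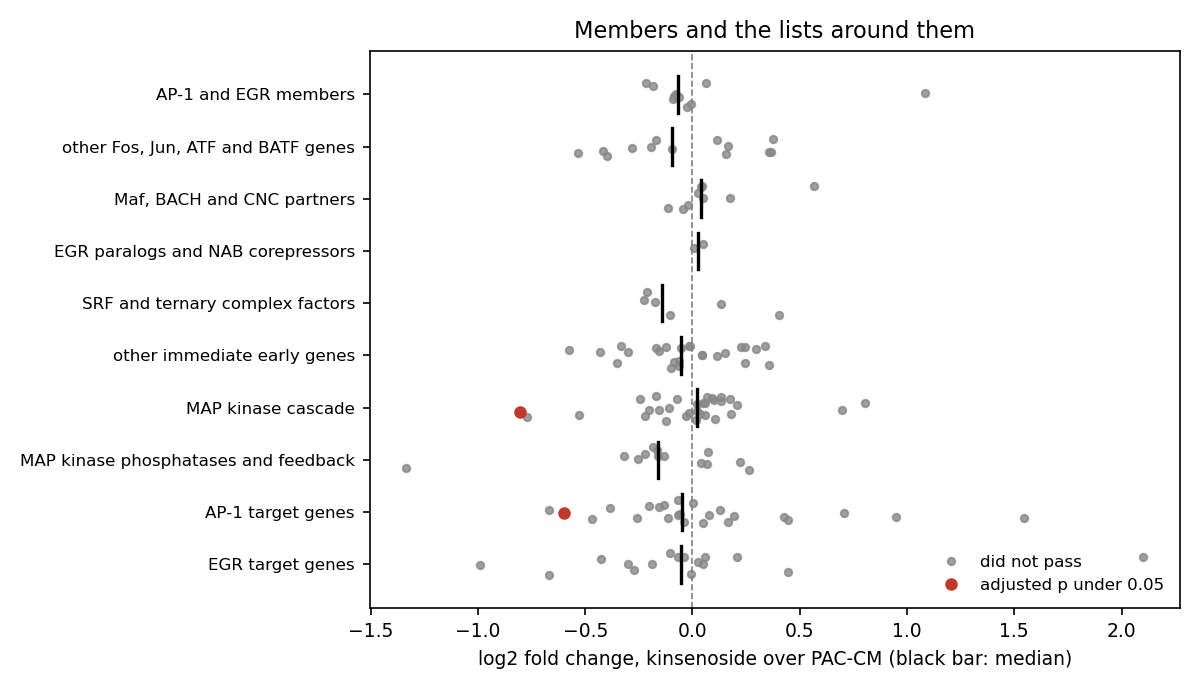
Log2 fold change, kinsenoside over PAC-CM, of each member and of each tested gene of the lists around them; black bars are medians, red points passed the test at an adjusted p under 0.05 and grey points did not. The red points are Map3k5 at -0.81 and Il1b at -0.60, and the medians lie between -0.16 and 0.04.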

How the data were processed

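RNA-seq counts of 6 libraries were used, 3 with kinsenoside and 3 with PAC-CM alone, grouped by the labels. Per the labels' protocols, cells grew in 10% serum with 20 ng/mL of macrophage colony-stimulating factor, and libraries from 1 µg of total RNA were read as 150-nucleotide pairs. The authors deposited whole-number counts per Ensembl gene. The submitters' processing notes name STAR, StringTie 1.3.1c and DESeq2 1.16.1 without roles; which tool counted, and whether strand was used, are not given there or in the labels. Counts of 3 (6202 table cells) outnumbered counts of 2 (5128), and rounding of estimates was not tested.

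The test was edgeR 4.0.16 (R 4.3.3): filterByExpr, TMM, robust quasi-likelihood fits on group alone, two-sided, Benjamini-Hochberg over 13901 genes, threshold 0.05. Each SE is the absolute log2 estimate divided by the square root of its F statistic, and intervals use the t quantile on each gene's total degrees of freedom. Values called CPM are counts over the library total, and profiles are log2 CPM with a prior count of 2. Exon lengths and coordinates are from GENCODE M21 (GRCm38), which holds 55154 of the identifiers. The edgeR, DESeq2 1.42.0 and limma 3.58.1 scripts were tested on simulated data. The members and lists were chosen with earlier results of these data known. Named were all members, up to 4 called genes per list or else its 2 most abundant, and the 3 genes most like Fos, Jun and Egr1; other names were added after values were seen, and some genes the rule names are not reported here. Alternatives were another tool, scaling or filter, the replicate block, non-robust estimates and leaving out each library.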

Additional observations from a re-analysis of the deposited data

How the results depend on the processing

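None of the 10 members passed in any of 14 alternatives (139 fits, since Egr1 drops out where 3 libraries must exceed 1 CPM). The lowest adjusted p was 0.114, for Junb by edgeR without kinsenoside replicate 1. The sign of the log2 fold change held in all alternatives for 7 members. It turned for Jun, Maff and Egr2 when single libraries were left out, with ranges of -0.17 to 0.0781, -0.19 to 0.0642 and -0.29 to 0.23; the cause was not tested. Over all genes, edgeR called 71, DESeq2 494, limma-voom 39, non-robust estimates 36, and leaving out 1 library between 13 and 98: 98, 20 and 37 when kinsenoside replicate 1, 2 or 3 was left out and 13, 26 and 14 when PAC-CM replicate 1, 2 or 3 was left out. Of the 136 tested list genes, edgeR called 2, DESeq2 7, limma-voom 1, non-robust estimates 1, and leaving out 1 library between 0 and 4. Il1b passed in 11 of 15 settings and Map3k5 in 8. Same-numbered libraries did not deviate together (correlations 0.00874, -0.101 and 0.135 for replicates 1, 2 and 3), and not every library correlated best with its own number. With the replicate block 42 genes, 3 list genes and 0 members were called, and Mrc1 was not (adjusted p = 0.0767 by edgeR). Depth limits Egr1 most, at 13 to 55 counts.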
